A study of Rattus norvegicus with 4 samples.

Results

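The 9 transient receptor potential (TRP) channel genes described here are those tied to sensing temperature and oxidants: Trpv1, Trpv2, Trpv4 and Trpm3 for heat and warmth, Trpm8 and Trpc5 for cold, and Trpa1, Trpm2 and Trpm7 for irritants and oxidants. They were chosen by name, and their probes were found by matching the transcript accession of each probe on the array to the rat gene. This gave 12 probes for 9 genes, of 30367 probes on the array, and all 9 genes are among the 22822 genes that could be compared. Per the labels, RNA came from the spinal dorsal horn, the part of the cord that receives sensory input, of male rats aged 6 weeks, on day 10. Rats of one group had been given oxaliplatin, a platinum chemotherapy drug known for painful, cold-sensitive neuropathy, and rats of the other had been given vehicle. Each of the 4 Agilent arrays (2 oxaliplatin, 2 vehicle) compared 2 RNA samples, labelled as RNA of the treated rats in Cy5 and RNA of untreated rats in Cy3. The dose, the vehicle, the strain, the number of rats behind each RNA and whether the untreated RNA was the same on every array are not given in the sources used here.

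TRP channels are cation channels whose opening lets sodium and calcium into a cell. In sensory neurons TRPV1 opens to noxious heat and capsaicin, TRPM8 to cooling and menthol, and TRPA1 to electrophiles and oxidants, and each thereby turns a physical or chemical stimulus into firing. The cell bodies of these neurons, where most of their mRNA lies, are in the dorsal root and trigeminal ganglia, while their central endings reach the dorsal horn. TRPM2, TRPM7, TRPV4 and TRPC5 are also made by glia, immune cells, vessels or central neurons.

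Several facts of the arrays bear on every value. The ratio given throughout is the normalised log2 of Cy5 over Cy3, and its sign has no dye swap behind it, so dye and RNA cannot be told apart. The text on the extracts names Cy3 labelling only, so the channel of each RNA rests on the channel labels. The oxaliplatin arrays shared one slide and the vehicle arrays another, so slide and group cannot be told apart. Oxaliplatin replicate 2 had the dimmest Cy3 channel, with a median net signal of 142.5 scanner units against 260.0 to 306.0 on the other arrays. Its ratios correlated by 0.854 with oxaliplatin replicate 1, less than the 0.918 between oxaliplatin replicate 1 and vehicle replicate 1, across probes that are not independent. Cy5 was well above background for 82.7% to 85.4% of probes and Cy3 for 76.8% to 88.1%. The number of arrays limits the precision, and the p-values measure only the spread between arrays that the labels call biological replicates.

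The tissue label was set against marker genes. Of 8 dorsal horn neuron markers, 6 were measured and well above background in both channels on all 4 arrays, and 4 of them were called lower in Cy5 (26.3% of all genes; limma, mean ratio over the 4 arrays against 0, threshold of 0.05 on the adjusted p) and 1 higher (29.3%). Before normalisation their net signals summed to 93850 to 110237 scanner units in Cy5 and 41452 to 63240 in Cy3. Cy5 was the brighter channel at large, with a median net signal per array of 486.5 to 532.8, against 142.5 to 306.0 in Cy3. Of 12 markers of sensory ganglion neurons, 11 were measured and all 11 were called higher in Cy5, beside 29.3% of all genes. Their summed net Cy5 signal was 302908 to 309593 scanner units on the oxaliplatin arrays and 288447 to 312383 on the vehicle arrays. In Cy3 the same sum was 7053 to 8263 on the oxaliplatin arrays and 8199 to 12725 on the vehicle arrays. Avil, an actin-binding protein of these neurons, had a mean ratio of 4.91, and P2rx3, their ATP receptor, one of 4.43. Of 8 forebrain markers, 7 were measured and 6 were called higher in Cy5, beside the same 29.3%, among them the transcription factor Lhx2 with a mean ratio of 4.25. All of the measured markers were well above background in each channel on 1 array or more. The least often detected, Mrgprd, was so in Cy5 on 3 arrays and in Cy3 on 1. Beside the dorsal horn markers, Cy5 thus held RNA of genes that go against its dorsal horn label. The part of these markers in the channel genes' ratios was not tested.

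Promoter windows are shown for the 3 channel genes with the highest mean ratio among those measured in both channels and the one with the lowest. They are the 250 bases before the annotated start in RefSeq on GRCr8, which matched 8 of the 9 genes (Trpa1 had no match, and Trpm3 had 2 entries, the first of which is printed). Capitals mark matches, on either strand, to 5 short motifs, and none of the matches overlap. The GC box was searched as GGGCGG, which 30.5% of all 33469 rat promoter windows of that length hold. The TATA box was searched as TATAAA and is held by 12.9% of them. The CCAAT box is held by 34%. The core that RUNX factors bind was searched as TGTGGT and is held by 14.5%. A core of the cAMP response element was searched as TGACGT and is held by 6.95%.
Trpv1, chr10:58349686-58349935, plus strand: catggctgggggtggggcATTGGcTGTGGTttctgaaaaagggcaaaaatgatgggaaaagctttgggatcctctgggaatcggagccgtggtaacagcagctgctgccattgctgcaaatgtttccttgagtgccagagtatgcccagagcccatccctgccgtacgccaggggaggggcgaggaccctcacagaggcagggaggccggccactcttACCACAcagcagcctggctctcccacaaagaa
Trpm8, chr9:96351433-96351682, plus strand: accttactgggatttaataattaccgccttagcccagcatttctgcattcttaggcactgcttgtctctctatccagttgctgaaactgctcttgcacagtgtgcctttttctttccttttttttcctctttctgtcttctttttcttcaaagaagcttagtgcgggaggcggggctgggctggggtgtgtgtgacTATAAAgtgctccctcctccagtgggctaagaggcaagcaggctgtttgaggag
Trpv2, chr10:47771973-47772222, plus strand: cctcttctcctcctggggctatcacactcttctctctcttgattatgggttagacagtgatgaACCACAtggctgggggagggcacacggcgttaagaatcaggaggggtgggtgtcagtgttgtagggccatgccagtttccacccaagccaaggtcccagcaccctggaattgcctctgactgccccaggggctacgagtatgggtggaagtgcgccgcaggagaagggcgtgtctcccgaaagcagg
Trpm3, chr1:229099491-229099740, plus strand: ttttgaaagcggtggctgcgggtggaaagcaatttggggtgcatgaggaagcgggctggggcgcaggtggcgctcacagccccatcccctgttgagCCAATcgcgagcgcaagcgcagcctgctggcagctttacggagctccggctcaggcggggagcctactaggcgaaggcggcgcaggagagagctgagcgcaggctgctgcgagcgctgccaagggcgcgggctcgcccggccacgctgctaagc
In the Trpv1 window CCAAT lies on the opposite strand, 232 to 228 bases before the start. TGTGGT follows at 226 to 221 bases on the same strand and recurs on the opposite strand at 32 to 27. The Trpm8 window holds TATAAA at 54 to 49 bases before the start. In the Trpv2 window TGTGGT lies on the opposite strand at 187 to 182 bases, and in the Trpm3 window CCAAT lies at 154 to 150. GC content was 58.4% for Trpv1 and for Trpv2, 48% for Trpm8 and 68% for the printed entry of Trpm3, beside a median of 51.2% over all windows. The other Trpm3 entry differed, with a GC content of 56%, 1 TGTGGT match and 0 CCAAT matches. Among the genes not printed, Trpv4 held 2 GC boxes and Trpm2 and Trpm7 held 1 each, while Trpc5 held none of the 5 motifs. Each match is a description of letters and was not tested against binding or expression.

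Detection came first. All 9 genes were well above background in Cy5 on all 4 arrays. In Cy3, 8 genes were well above background on all 4 arrays, and Trpa1 was so on 0 of 4. Of the 12 probes, 0 had a spot flagged as an outlier.

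**Figure D1:**
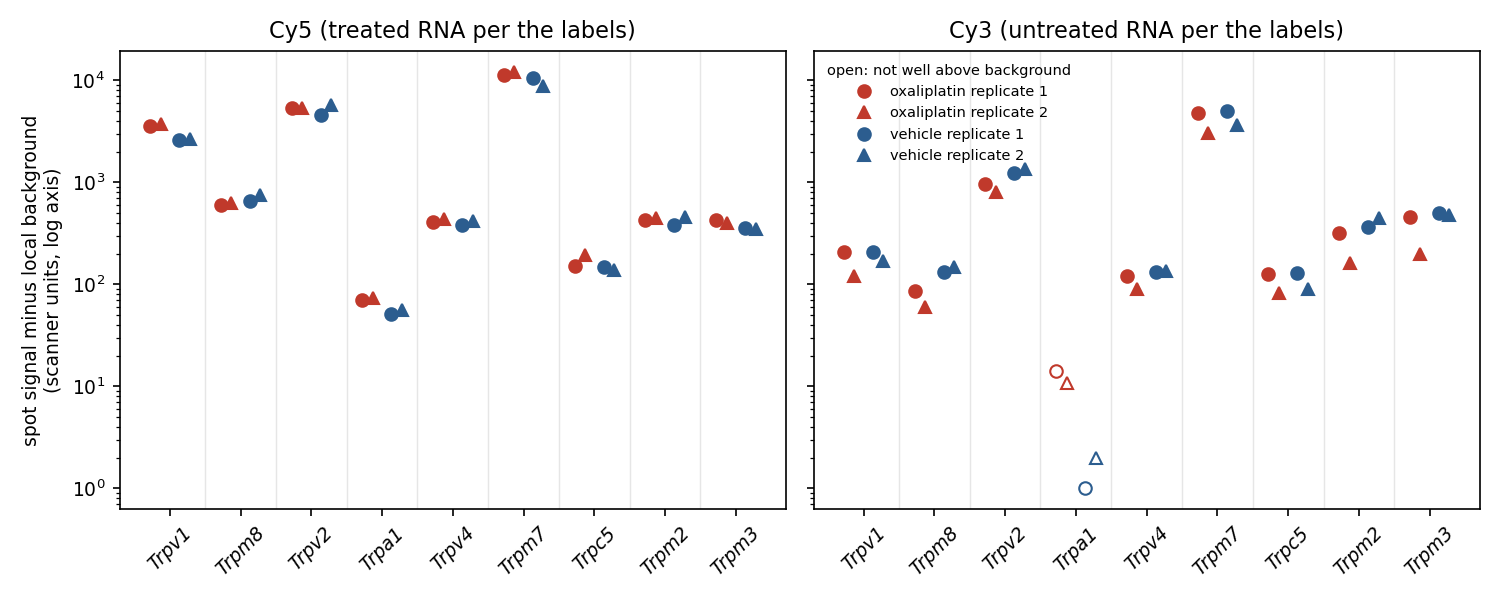
Net spot signal (spot minus local background, scanner units, log axis) of the 9 genes on each of the 4 arrays, with Cy5 on the left and Cy3 on the right, oxaliplatin in red and vehicle in blue. Trpa1 is the one gene with open symbols, not well above background, at 14 and 10.8 on the oxaliplatin arrays and 1 and 2 on the vehicle arrays in Cy3; levels of different probes are not comparable with each other.

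Since Cy3 gave no measured level of Trpa1, its ratio is only bounded, and it is described apart from the other 8 genes. Of these, 4 had a ratio above 0 on every array and were called higher in Cy5 (Trpv1, Trpm8, Trpv2 and Trpv4), where 29.3% of all genes were called in that direction by the same test. A further 3 (Trpm3, Trpm2 and Trpc5) were below 0 on every array and called lower in Cy5, beside 26.3% of all genes. Trpm7 was not called. In either direction 7 of 8 were called, beside 55.6% of all genes. The median of the 8 mean ratios was 0.36, against 0.03 over all genes. In order, the mean ratios were 2.75 for Trpv1, 1.30 for Trpm8, 1.14 for Trpv2, 0.58 for Trpv4, 0.14 for Trpm7, -0.28 for Trpc5, -0.45 for Trpm2 and -0.88 for Trpm3. Neighbours in this order whose arrays overlapped were Trpm8 with Trpv2, Trpc5 with Trpm2, and Trpm2 with Trpm3. Since each extract is of bulk tissue, fewer cells of a type and less RNA per cell cannot be told apart.

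**Figure D2:**
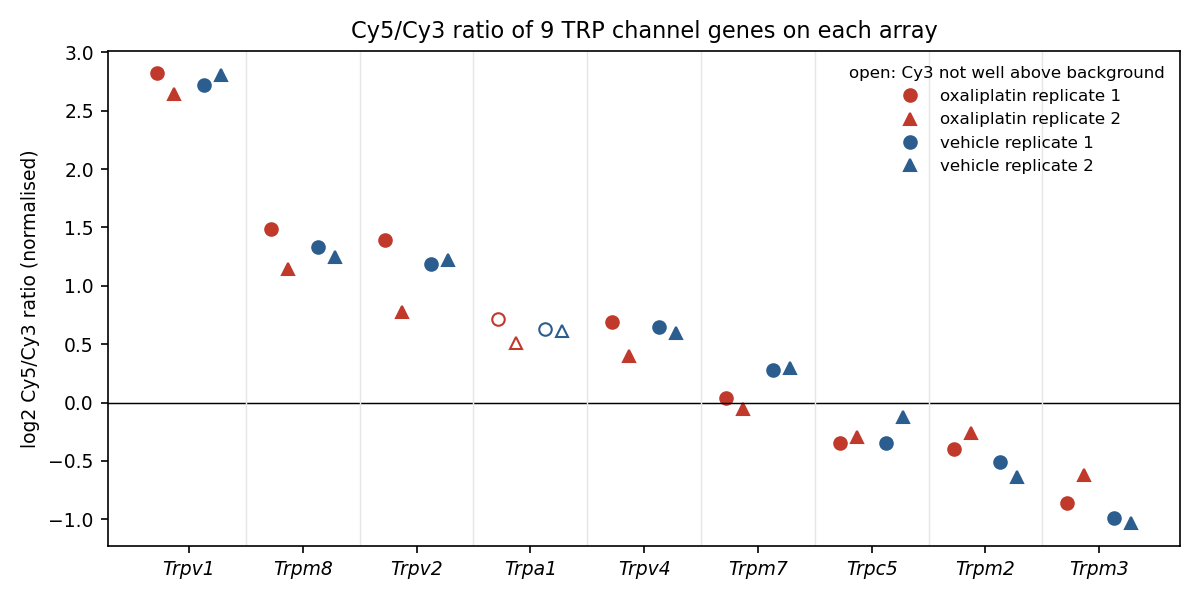
Normalised log2 Cy5/Cy3 ratio of the 9 genes on each array, oxaliplatin in red to the left of vehicle in blue, with a line at 0; open symbols mark Trpa1, whose Cy3 was not well above background and whose points are no measured ratio. The 4 points of Trpv1 lie between 2.64 and 2.82, those of Trpm3 between -1.03 and -0.62, and the groups are apart only for Trpm7, Trpm2 and Trpm3.

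**Figure D3:**
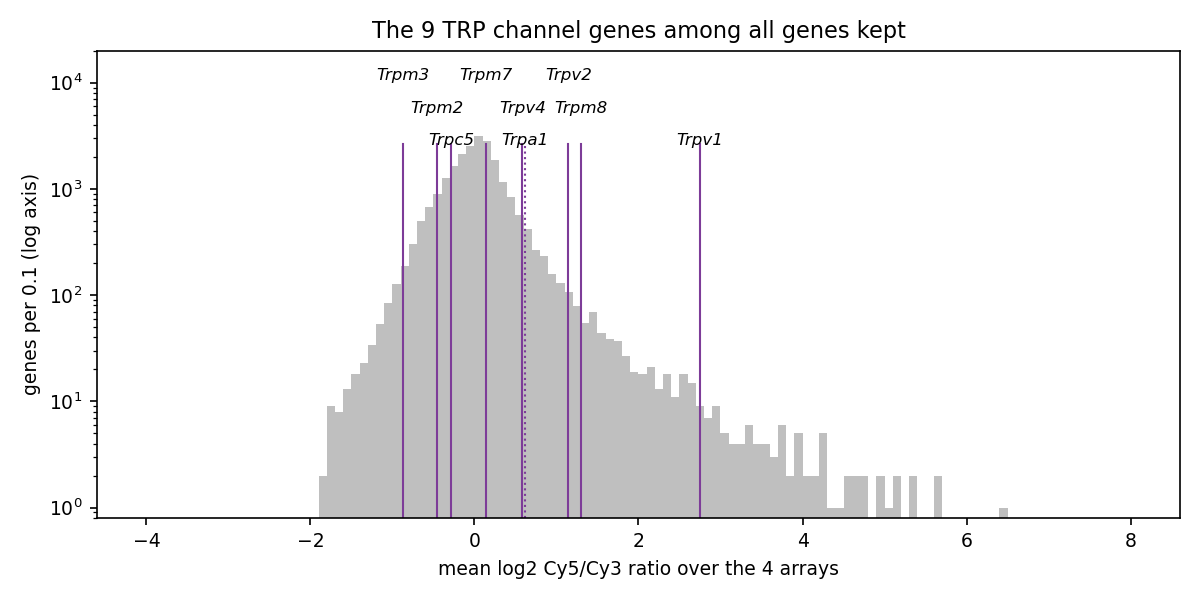
Histogram of the mean log2 Cy5/Cy3 ratio of all 22822 genes (genes per bin of 0.1, log axis), with a vertical line for each of the 9 channel genes (dotted for Trpa1, whose Cy3 was not well above background). Trpv1 stands in the right tail at 2.75 and Trpm3 on the left side at -0.88.

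The comparison of oxaliplatin with vehicle asks whether the ratio of these channels differed with the drug. No channel gene passed the test, and neither did any other gene: 0 of the 8 genes measured in both channels and 0% of 22822 were called (limma, Benjamini-Hochberg over all genes), while 3341 genes had an unadjusted p under 0.05. Of the 8, only Trpm7 had an unadjusted p under 0.05, beside 14.6% of all genes. For 3 of 8 genes the arrays of the groups did not overlap, beside 49.2% of all genes: Trpm2 and Trpm3 lay higher on the oxaliplatin arrays (27.0% of all genes) and Trpm7 lay lower (22.2%). For 5 of 8 the wider gap between arrays of one group exceeded the difference between the groups, as it did for 15065 of 22822 genes. The median difference of the 8 was -0.05 (log2, oxaliplatin minus vehicle), against 0.01 over all genes, and their SD was 0.19, against 0.25 over all genes. Without oxaliplatin replicate 1 the test called 950 of all genes, without oxaliplatin replicate 2 it called 15, without vehicle replicate 1 it called 33 and without vehicle replicate 2 it called 2, and none of the 9 channel genes was among them.

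Trpv1, the heat and capsaicin receptor of nociceptors, was measured by probes A_64_P130201 (the brightest, used here) and A_64_P061740. Its net Cy5 signal was 3560 and 3696 scanner units on the oxaliplatin arrays and 2600 and 2633 on the vehicle arrays. Net Cy3 signals were 210 and 122 on the oxaliplatin arrays and 207 and 169 on the vehicle arrays. Cy5 was thus many times brighter than Cy3 in both groups. The log2 ratio was 2.82 and 2.64 on the oxaliplatin arrays and 2.72 and 2.81 on the vehicle arrays. The mean over all arrays was 2.75 ± 0.06 (SE), or 6.72-fold higher in Cy5 (adjusted p = 6.69e-07), which is rank 91 from the top of 22822 genes. Between the groups the ratio differed by -0.03 ± 0.12 (95% interval -0.32 to 0.27, adjusted p = 0.935), and the groups overlapped. That sign turned with scaling of the ratios between arrays (0.34), with median centring (0.09) and without oxaliplatin replicate 2 (0.06). The second probe gave 2.11 and 1.94 on the oxaliplatin arrays and 1.83 and 2.12 on the vehicle arrays, a mean of 2.00, so both probes placed Trpv1 well above 0. Duplicate spots of the main probe differed by a median of 0.16 within an array, where the median over 13896 probes with a pair of spots was 0.07 to 0.08. The genes with the nearest ratios over the 4 arrays were Slc36a2, Wipf3 and Serinc2, at Euclidean distances of 0.13, 0.20 and 0.22 (log2, among genes with a symbol).

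The mean of the log2 channels was also normalised between arrays (Aquantile), and each channel was rebuilt from it with the ratio kept. The Cy5 difference less the Cy3 difference is then the ratio difference, so the channels are not separate readings. On these rebuilt log2 signals Trpv1 lay higher in both channels of the oxaliplatin arrays. Its Cy5 signal was 11.25 and 11.26 on the oxaliplatin arrays and 10.98 and 10.92 on the vehicle arrays, a difference of 0.31 ± 0.07 (limma, adjusted p = 0.184). In Cy3, labelled as untreated RNA in both groups, it was 8.43 and 8.62 on the oxaliplatin arrays and 8.26 and 8.12 on the vehicle arrays, a difference of 0.34 ± 0.16 (adjusted p = 0.289). The arrays of the groups did not overlap in either channel, and neither difference was called.

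Trpv2, a relative of Trpv1 that capsaicin does not open and that rat sensory neurons of larger diameter make, had a net Cy5 signal of 5389 and 5378 on the oxaliplatin arrays and 4609 and 5785 on the vehicle arrays (probe A_64_P130184). In Cy3 they were 965 and 796 on the oxaliplatin arrays and 1232 and 1344 on the vehicle arrays. The log2 ratio was 1.39 and 0.77 on the oxaliplatin arrays and 1.19 and 1.22 on the vehicle arrays. Oxaliplatin replicate 2 was the low array, and the gap of 0.62 inside the oxaliplatin group was the widest among the 9 genes. Over all arrays the ratio was 1.14 ± 0.10, 2.21-fold higher in Cy5 (adjusted p = 0.000162). The groups differed by -0.12 ± 0.20 (adjusted p = 0.806) and overlapped, and the sign turned without oxaliplatin replicate 2 (0.19), with median centring and with scaling (both 0.01). Duplicate spots of this probe differed within an array by a median of 0.02. Serpini1, Slit3 and Satb1 had the nearest ratios, at 0.12, 0.17 and 0.18.

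Trpv4, a warmth- and osmolarity-sensitive channel of many epithelia, vessels and glia, had a net Cy5 signal of 411 and 440 on the oxaliplatin arrays and 380 and 414 on the vehicle arrays (probe A_64_P130174). Cy3 gave 122 and 89.5 on the oxaliplatin arrays and 133 and 136 on the vehicle arrays. Its log2 ratio was 0.69 and 0.40 on the oxaliplatin arrays and 0.64 and 0.60 on the vehicle arrays. The mean ratio was 0.58 ± 0.07, 1.5-fold higher in Cy5 (adjusted p = 0.000531). The groups differed by -0.07 ± 0.14 (adjusted p = 0.834) and overlapped, and without oxaliplatin replicate 2 the difference was 0.07. Brap, Cbx2 and Sox5 had the nearest ratios, at 0.06, 0.09 and 0.10.

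Trpm3, a channel of sensory neurons and other cells that opens to heat and to the steroid pregnenolone sulfate, had the lowest ratio of the 9. Its brighter probe, A_64_P086502, has 1 spot and gave a net Cy5 signal of 432 and 402 on the oxaliplatin arrays and 355 and 352 on the vehicle arrays. The Cy3 signals were 457 and 197 on the oxaliplatin arrays and 505 and 479 on the vehicle arrays. Ratios were -0.86 and -0.62 on the oxaliplatin arrays and -0.99 and -1.03 on the vehicle arrays, all below 0 and with the groups apart. Over all arrays the ratio was -0.88 ± 0.07, 1.84-fold lower in Cy5 (adjusted p = 7.57e-05), and only 1.81% of all genes lay lower. The oxaliplatin arrays were higher by 0.27 ± 0.13 (95% interval -0.04 to 0.58, unadjusted p = 0.0773, adjusted p = 0.388). The second probe, A_64_P086507, gave -0.90 and -0.75 on the oxaliplatin arrays and -0.92 and -0.70 on the vehicle arrays, a difference of -0.01 ± 0.13 with overlapping groups. Both probes were below 0 on every array, and the groups were apart for 1 of them only. The mean over both probes differed by 0.13, and the brighter probe by 0.15 without oxaliplatin replicate 2. Ing4, Tmbim1 and Serinc5 had the nearest ratios to the brighter probe, at 0.04, 0.06 and 0.11.

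Trpm8, the cold and menthol receptor of a small class of sensory neurons, gave a net Cy5 signal of 602 and 626 on the oxaliplatin arrays and 656 and 749 on the vehicle arrays (probe A_64_P041581). For Cy3 the values were 85.5 and 60 on the oxaliplatin arrays and 132 and 147 on the vehicle arrays. The log2 ratio was 1.49 and 1.15 on the oxaliplatin arrays and 1.33 and 1.25 on the vehicle arrays, with the vehicle values lying between those of oxaliplatin. Its mean ratio was 1.30 ± 0.07, 2.47-fold higher in Cy5 (adjusted p = 2.47e-05), rank 496 from the top. Between the groups it differed by 0.03 ± 0.15 (95% interval -0.32 to 0.38, adjusted p = 0.947), and the groups overlapped. Alternatives ran both ways, with 0.39 by the scanner software's log ratio, 0.19 with scaling and 0.14 with an offset of 10, and with -0.14 without oxaliplatin replicate 1 and -0.05 with median centring. The Cy5 signal alone was 8.97 and 8.99 on the oxaliplatin arrays and 9.07 and 9.24 on the vehicle arrays, a difference of -0.18 ± 0.09 (adjusted p = 0.332) without overlap. In Cy3 the difference was -0.21 ± 0.19 (adjusted p = 0.561) with overlap. Erbb2, Pla2g2a and Ephb6 had the nearest ratios, at 0.12, 0.14 and 0.14.

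Trpc5, a channel of central neurons and a cold sensor of peripheral endings that receptors coupled to Gq open, lay below 0 on every array (probe A_44_P118874). Net Cy5 signals were 150 and 192 on the oxaliplatin arrays and 149 and 138 on the vehicle arrays. In Cy3 they were 127 and 82.2 on the oxaliplatin arrays and 130 and 89.8 on the vehicle arrays. The net signal was thus higher in Cy5 on every array, and the ratio lay below 0 after normalisation. The ratios were -0.35 and -0.30 on the oxaliplatin arrays and -0.35 and -0.12 on the vehicle arrays. Their mean of -0.28 ± 0.06, 1.21-fold lower in Cy5, was called (adjusted p = 0.00937) but not without vehicle replicate 1 (-0.22, adjusted p = 0.083), and it was -0.56 in the scanner software's log ratio. The groups differed by -0.09 ± 0.13 (adjusted p = 0.788), and by 0.03 without vehicle replicate 2. Duplicate spots of Trpc5 differed by a median of 0.21, the largest of the 8 probes of these genes with a pair of spots, beside a mean ratio of -0.28. Nipa1, Hacd1 and Klhdc10 had the nearest ratios, at 0.05, 0.05 and 0.06.

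Trpa1, the channel that electrophilic irritants and oxidants open in nociceptors, was dim (probe A_44_P472874). Its net Cy5 signal was 70.5 and 74 on the oxaliplatin arrays and 51.2 and 56.5 on the vehicle arrays, well above background on each. Net Cy3 signals were 14 and 10.8 on the oxaliplatin arrays and 1 and 2 on the vehicle arrays, not well above background on any. Only a bound can therefore be set on its ratio. Normalised log2 signals were 6.93 in Cy5, against a limit of 6.35 in Cy3 (6.32 as measured). Under this normalisation the bound put Cy5 at least 1.5-fold higher, and the bound itself was not tested. The limit takes, on each array, the higher of the lowest signal among probes well above background and the signal of Trpa1 itself. On 3 of 4 arrays it was the signal of Trpa1 itself. The fitted mean ratio, which rests on the unmeasured Cy3, was 0.62. The filter kept Trpa1 through its Cy5 alone, the brighter channel, so the test of that ratio is not read. When arrays were centred on their median instead, the fitted ratio was 0.22, and the scanner software's own log ratio gave 3.08. The fitted log2 ratios, 0.72 and 0.51 on the oxaliplatin arrays and 0.63 and 0.62 on the vehicle arrays, divide by Cy3 signals that were not well above background and give no measured difference between the groups. In Cy5 alone Trpa1 was 7.07 and 7.06 on the oxaliplatin arrays and 6.72 and 6.89 on the vehicle arrays, a difference of 0.26 ± 0.09 (adjusted p = 0.236) without overlap.

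Trpm2, which opens to ADP-ribose made during oxidant stress and to warmth and is known from microglia and other immune cells, was measured by 1 spot (probe A_64_P041546). Its net Cy5 signal was 424 and 446 on the oxaliplatin arrays and 378 and 460 on the vehicle arrays. Cy3 gave 316 and 162 on the oxaliplatin arrays and 368 and 450 on the vehicle arrays. The ratios were -0.40 and -0.26 on the oxaliplatin arrays and -0.51 and -0.64 on the vehicle arrays, so all lay below 0 and the groups did not overlap. After normalisation the mean was -0.45 ± 0.06, 1.37-fold lower in Cy5 (adjusted p = 0.000989), while the net signal was higher in Cy5 on every array. The oxaliplatin arrays were higher by 0.25 ± 0.12 (95% interval -0.05 to 0.54, unadjusted p = 0.0856, adjusted p = 0.402). By channel, Cy5 differed by 0.02 ± 0.11 (adjusted p = 0.94) and Cy3 by -0.23 ± 0.18 (adjusted p = 0.491), with overlap in both. Among the marker lists, oligodendrocyte markers were higher in the ratio on the oxaliplatin arrays by a median of 0.72 and astrocyte markers by 0.42. Before normalisation the summed net Cy3 signal of oligodendrocyte markers was 111098 to 194353 on the oxaliplatin arrays and 301765 to 302253 on the vehicle arrays. In Cy5 it was 264414 to 301789 and 247676 to 264604. For astrocyte markers it was 44239 to 69459 and 70805 to 91417 in Cy3, and 166566 to 198209 and 130712 to 140545 in Cy5. The groups were apart and higher for 4 of 5 oligodendrocyte and 2 of 5 astrocyte markers, beside 27.0% of all genes. Of the astrocyte markers, 1 was apart and lower, beside 22.2%. The 6 microglial markers differed by a median of 0.04, with 3 higher and 3 lower. The part of these lists in the Trpm2 difference was not tested. Clk2, Arrb2 and Dglucy had the nearest ratios, at 0.04, 0.05 and 0.06.

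Trpm7 is a channel joined to a protein kinase, carries magnesium and zinc and is made by nearly all cells. Of the 8 genes measured in both channels, it was the only one whose mean ratio was not called. Its main probe, A_64_P116734, gave a net Cy5 signal of 11250 and 12190 on the oxaliplatin arrays and 10660 and 8708 on the vehicle arrays. Net Cy3 signals were 4765 and 3080 on the oxaliplatin arrays and 4969 and 3625 on the vehicle arrays. Ratios were 0.04 and -0.06 on the oxaliplatin arrays and 0.28 and 0.30 on the vehicle arrays, with the oxaliplatin arrays below both vehicle arrays. The difference was -0.30 ± 0.11 (95% interval -0.57 to -0.03, unadjusted p = 0.0349, adjusted p = 0.317). The mean over all arrays was 0.14 ± 0.06 (adjusted p = 0.0763), and it was called with median centring (0.44, adjusted p = 0.0015). In Cy3 alone Trpm7 was higher by 0.36 ± 0.20 (adjusted p = 0.344) without overlap, and in Cy5 alone it differed by 0.06 ± 0.16 (adjusted p = 0.857) with overlap.

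The second Trpm7 probe, A_44_P550412, went the other way. It gave 0.06 and 0.06 on the oxaliplatin arrays and -0.20 and -0.20 on the vehicle arrays, again without overlap. Its difference was 0.26 ± 0.11 (unadjusted p = 0.051, adjusted p = 0.345 over all probes), close in size and opposite in sign to that of the main probe. Averaged over both probes the difference was -0.02, so the direction depended on the probe. Or3a4, Golph3 and Arl5a had the nearest ratios to the main probe, at 0.04, 0.07 and 0.07.

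**Figure D4:**
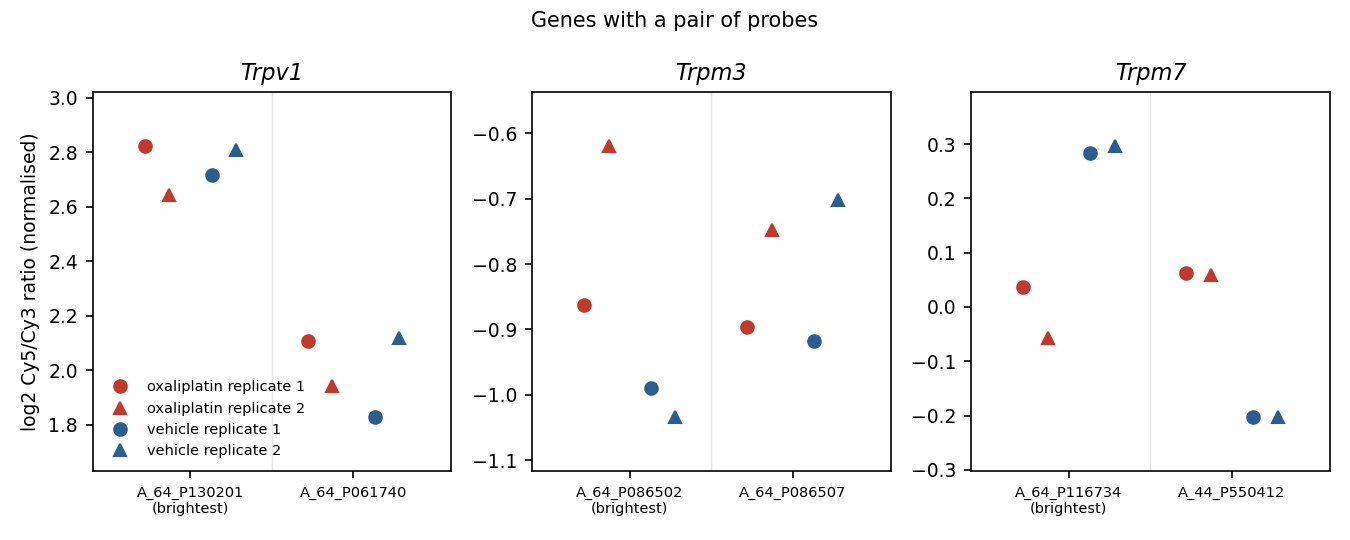
Normalised log2 Cy5/Cy3 ratio of the 3 genes with a pair of probes, by probe and array, oxaliplatin in red to the left of vehicle in blue; each panel has its own vertical scale. For Trpm7 the groups are apart for both probes and in opposite directions (-0.30 and 0.26), and for Trpm3 they are apart for 1 probe only.

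The rebuilt signals of each channel were compared, Cy5 for all 9 genes and Cy3 for the 8 with a level in it. In Cy5 the groups did not overlap for 6 of 9 genes, beside 59.8% of all genes: Trpv1, Trpa1, Trpc5 and Trpm3 were higher on the oxaliplatin arrays (29.6% of all genes) and Trpm8 and Trpv2 lower (30.2%). In Cy3 alone 3 of 8 did not overlap, beside 58.2% of all genes: Trpv1, Trpc5 and Trpm7 were higher (26.9% of all genes) and 0 were lower (31.3%). None was called in either channel, nor was any other gene (0% in each). In the rebuilt signals Trpv1 and Trpc5 lay higher on the oxaliplatin slide in both dyes, and their ratios differed by -0.03 and -0.09. With so small a ratio difference the rebuilt channels move together by construction. Net Cy3 signals before normalisation overlapped between the groups for both genes. For Trpc5 they were 127 and 82.2 on the oxaliplatin arrays and 130 and 89.8 on the vehicle arrays. For Trpc5 the difference was 0.21 ± 0.10 in Cy5 (adjusted p = 0.291) and 0.30 ± 0.15 in Cy3 (adjusted p = 0.32). Trpv2 differed by -0.13 ± 0.10 in Cy5 (adjusted p = 0.454) and by -0.01 ± 0.22 in Cy3 (adjusted p = 0.983). Trpv4 differed by 0.08 ± 0.09 in Cy5 (adjusted p = 0.625) and by 0.15 ± 0.18 in Cy3 (adjusted p = 0.655), and Trpm3 by 0.14 ± 0.08 in Cy5 (adjusted p = 0.35) and by -0.13 ± 0.17 in Cy3 (adjusted p = 0.691).

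**Figure D5:**
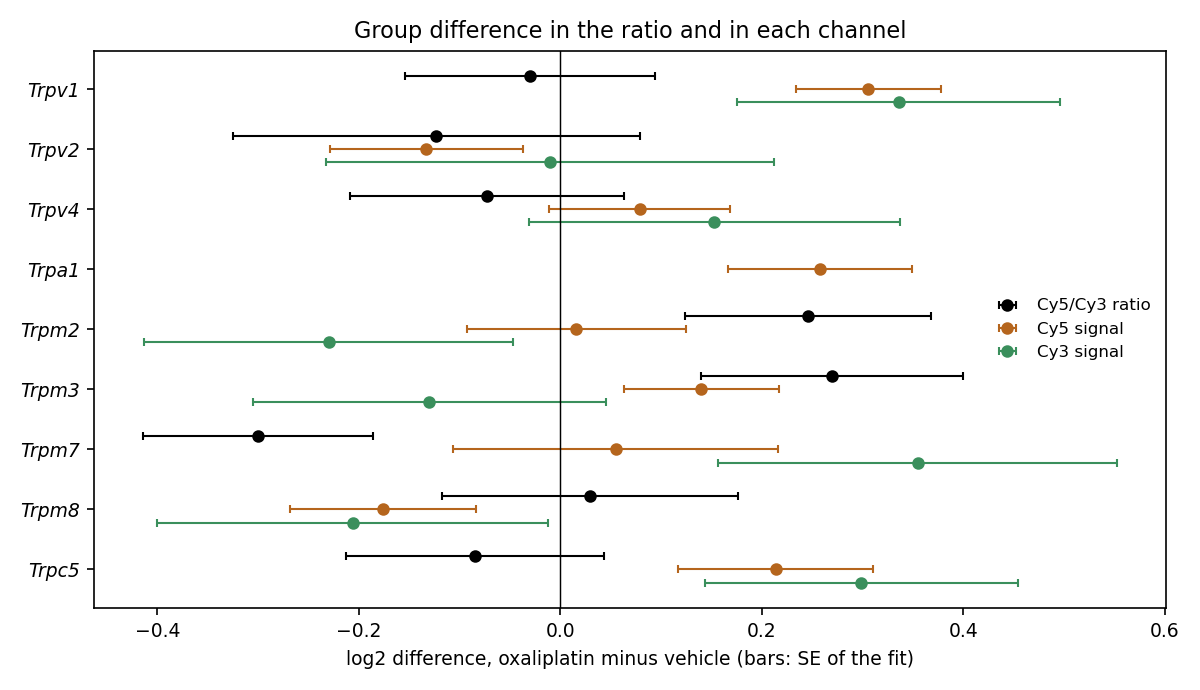
Difference between the groups (log2, oxaliplatin minus vehicle) of the channel genes in the Cy5/Cy3 ratio, in the Cy5 signal and in the Cy3 signal (Cy5 only for Trpa1); points are estimates and bars the SE of the fit. For Trpv1 both channels lie at about 0.3 while the ratio lies at -0.03, and for Trpm7 the ratio lies at -0.30 with Cy3 at 0.36.

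Of the 19 other TRP family genes listed, 15 were measured, and they were read the same way. None was called between the groups, 3 lay apart and higher (27.0% of all genes) and 2 apart and lower (22.2%), and the median difference was -0.05, against 0.01 over all genes. Pkd2, the polycystin channel of cilia, had the smallest p: its ratios were -0.07 and 0.00 on the oxaliplatin arrays and -0.28 and -0.40 on the vehicle arrays, a difference of 0.31 ± 0.12 (adjusted p = 0.317). Trpc7 differed by 0.24 ± 0.13 (adjusted p = 0.438), Trpc6 by -0.20 ± 0.12 (adjusted p = 0.486) and Mcoln1, a channel of lysosomes, by -0.36 ± 0.23 (adjusted p = 0.49). Over all arrays 7 of the 15 were called higher in Cy5 (29.3% of all genes), 3 lower (26.3%) and 5 not called, with a median of 0.16. Trpc6 led with 1.76 (adjusted p = 3.76e-06), followed by Trpc4 with 0.96 and Trpc1 with 0.73, and Trpc7 lay at -0.61. None of the 15 had a mean ratio as high as Trpv1.

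Of 18 genes that regulate TRP channels, 17 were measured. Between the groups 0 were called, 5 lay apart and higher (27.0% of all genes) and 4 apart and lower (22.2%), with a median difference of -0.06. Prkce, the protein kinase C isoform that sensitises TRPV1, had ratios of 0.82 and 1.03 on the oxaliplatin arrays and 0.29 and -0.11 on the vehicle arrays, a difference of 0.83 ± 0.16 (unadjusted p = 0.00164, adjusted p = 0.294). Cdk5r1, the activator of the kinase Cdk5, differed by -0.72 ± 0.27 (adjusted p = 0.315), while Cdk5 itself differed by 0.23 ± 0.12 (adjusted p = 0.411). Gnaq, the G protein subunit that couples receptors to phospholipase C, differed by -0.25 ± 0.12 (adjusted p = 0.382). Over all arrays 13 of 17 were called higher in Cy5 (29.3% of all genes) and 2 lower (26.3%), with a median of 0.59. Among them were Anxa2, which binds TRPA1, with 3.73, its partner S100a10 with 2.66 and the scaffold Akap5 with 1.59.

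Enzymes that make or clear ADP-ribose and oxidants, upstream of TRPM2 and TRPA1, were kept for 13 of 14 genes. The other, Nox4, was well above background in Cy3 on all 4 arrays and in Cy5 on 0. The filter on Cy5 left it out, so it has no ratio here. None was called between the groups, 4 lay apart and higher (27.0% of all genes) and 3 apart and lower (22.2%), with a median difference of -0.09. Parg, which releases ADP-ribose from its polymer, had ratios of 0.52 and 0.40 on the oxaliplatin arrays and -0.15 and -0.33 on the vehicle arrays, a difference of 0.70 ± 0.12 (unadjusted p = 0.000933, adjusted p = 0.294). Cd38, which makes ADP-ribose from NAD, differed by 0.37 ± 0.12 (adjusted p = 0.307), and Nudt9, which degrades it, by -0.29 ± 0.14 (adjusted p = 0.387). Cyba, a subunit of the superoxide-producing NADPH oxidase, had ratios of 0.25 and 0.07 on the oxaliplatin arrays and 0.63 and 0.71 on the vehicle arrays, a difference of -0.51 ± 0.12 (adjusted p = 0.294). Over all arrays 4 of the 13 were called higher in Cy5 (29.3% of all genes) and 3 lower (26.3%). Gpx1, which removes peroxides, was the lowest of the 13 at -0.89.

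Enzymes of lipid agonists of TRP channels were measured for 9 of 10 genes, with 0 called between the groups, 2 apart and higher (27.0% of all genes), 1 apart and lower (22.2%) and a median difference of -0.03. Mgll, which hydrolyses the endocannabinoid arachidonoylglycerol, had ratios of 0.78 and 1.18 on the oxaliplatin arrays and 0.40 and 0.12 on the vehicle arrays, a difference of 0.73 ± 0.17 (adjusted p = 0.294). Alox5, the lipoxygenase of leukotriene synthesis, differed by 0.29 ± 0.14 (adjusted p = 0.401), Ptges by -0.20 ± 0.12 (adjusted p = 0.47) and Napepld, which makes anandamide, by -0.24 ± 0.21 (adjusted p = 0.622). Over all arrays Ptgs2 (0.87) and Mgll (0.62) were called higher in Cy5 (29.3% of all genes) and Ptgs1 (-0.65) lower (26.3%). Beside these values, the oligodendrocyte and astrocyte markers named with Trpm2 had a positive difference for 4 of 5 genes in each list. Of all 22822 genes, 11685 did. The groups were apart and higher for 4 of 5 oligodendrocyte and 2 of 5 astrocyte markers (27.0% of all genes), and 1 astrocyte marker was apart and lower (22.2%). The part of these markers in the differences of the lists above was not tested.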

How the data were processed

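Agilent 2-colour arrays (4 in all) measured total RNA labelled as rat spinal dorsal horn, and groups follow the sample titles. The scanner files give, per the file headers, the median pixel intensity of each spot and of its background in each channel, the log10 ratio of Cy5 over Cy3, and other values that flag spots as well above background, saturated or outliers. Agilent Feature Extraction is version 10.7.1.1 in the headers, which give rn4 as the build of the probe design, and version 8.5.1.1 in the submitters' processing notes. The authors also deposited a value table that holds the same log10 ratios to within 0.0050, with column medians of -0.00277 and 0 for the oxaliplatin arrays and -0.00492 and -0.00316 for the vehicle arrays. All columns of per-sample values were mapped to samples.

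Intensities were corrected with normexp (offset 50; median signals, since the files hold no mean signals) and loess within arrays in limma 3.58.1 under R 4.3.3. Control spots (4259 per array) had weight 0 and were left out, as were outlier spots (1730 on any array), and spots of a probe were averaged. A probe was kept (26004 of 30367) if its Cy5 spot stood well above background on 2 arrays or more. Probes were named through their accession, and the brightest probe stood for a gene, which left 22822 genes, 13941 with a symbol. Oxaliplatin minus vehicle, and the mean ratio against 0, were tested by lmFit and eBayes (two-sided). The residual df was 2 and the prior df 4.74. P-values were adjusted over all genes by Benjamini and Hochberg's method, with 0.05 as the threshold. The fit was tested on simulated data. The members, lists and tests were chosen with earlier results of these data known. Named genes were the 9 channel genes, up to 4 genes of each other list with the smallest unadjusted p in the comparison described, and the 3 genes nearest to each channel gene in their ratios. Some genes that this rule names are not reported here. The labels do not say what a shared replicate number marks, so replicate numbers were not taken to pair arrays. Same-numbered arrays deviated from their group means with a correlation of -0.222 across genes.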

Additional observations from a re-analysis of the deposited data

How the results depend on the processing

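The mean ratios over all arrays kept their sign under all 15 alternatives to the ratio (14 for Trpa1, which a filter on both channels leaves out), and the calls of Trpv1, Trpv2, Trpv4, Trpm2, Trpm3 and Trpm8 were kept. With median centring the fitted ratio of Trpa1, whose test is not read, fell to 0.22, and Trpm7 gained a call (0.44). Trpc5 lost its call without vehicle replicate 1 (-0.22). Between the groups no channel gene was called under any of these alternatives. Trpm2 kept a positive difference (0.18 to 0.34), as did Trpm3 (0.13 to 0.39), and Trpm7 a negative one (-0.35 to -0.02). Except for the mean over probes, these ranges use the brightest probe of a gene only. The second probe differed by 0.26 for Trpm7 and by -0.01 for Trpm3, so neither sign held over the probes. For the other genes the sign turned, and the cause was not tested: Trpv1 was 0.007 by the log ratio of the scanner software, 0.008 by the authors' value table, 0.01 by the mean over probes, 0.092 with median centring and 0.34 with scaling. Trpv2 was 0.014 with median centring and 0.006 with scaling, Trpa1 0.068 with scaling and Trpm8 -0.047 with median centring. Larger moves without a turn were those of Trpm8 to 0.39 by the scanner software and of Trpa1, whose Cy3 was not measured, to -0.45 there and -0.36 with median centring. Over these alternatives the range was -0.12 to 0.34 for Trpv1, -0.25 to 0.03 for Trpc5, -0.14 to 0.39 for Trpm8 and -0.45 to 0.10 for Trpa1. Leaving out 1 array at a time gave -0.12 to 0.059 for Trpv1, -0.43 to 0.19 for Trpv2, -0.22 to 0.07 for Trpv4, -0.11 to 0.10 for Trpa1, -0.14 to 0.20 for Trpm8 and -0.20 to 0.028 for Trpc5. Taken on Cy5 signals alone, the sign turned for Trpv1 (0.31), Trpv4 (0.079), Trpa1 (0.26), Trpm7 (0.055), Trpm8 (-0.18) and Trpc5 (0.21), and Cy3 alone was -0.01 for Trpv2. The count of genes called between the groups, 0 in the fit reported, was 3 with the replicate number as a block and 537 with the numbers crossed (chosen after seeing the data), and 2 to 950 without 1 array; with an array left out, a lone array is assumed to vary like the other group. The slide as a block was not run, since each slide holds 1 group. With 4 arrays the precision is low, and dim Cy3 limits Trpa1 most.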
